A study of Mus musculus with 75 samples.

Results

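Leukocytes leave the blood by holding on to adhesion molecules on the vessel wall, and 7 genes for such molecules were examined here. They are Icam1, Vcam1, Sele, Selp, Madcam1, Pecam1 and Cdh5. They were taken by symbol, 7 of the 21051 symbols in the count table of the untreated and 2 h experiments and 7 of the 21076 symbols in that of the 24 h experiment. No measured value entered the choice of these symbols, but the set was proposed with earlier results of these data known. The libraries were labelled as enteric glia (EGC), the supporting cells of the ganglia in the gut wall, from adult mice of both sexes. All 16 groups carried an eGFP reporter transgene. How the cells were isolated from the tissue and the strain of the mice are not given in the sources used here.

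Of the 75 libraries, 22 came from untreated reporter mice. These covered the myenteric plexus (between the muscle layers) and the submucosal plexus, with 5 colon and 6 small-intestinal libraries for each. The 2 h experiment held 16 libraries of the myenteric plexus of reporter mice, 4 for each region and treatment. The 24 h experiment held 37 libraries of the myenteric plexus, from reporter mice that were Gpr37WT (wild type) or Gpr37-/- (knockout). Wild type gave 6 PBS and 4 LPS libraries of small intestine, and 4 PBS and 5 LPS of colon. Knockouts gave 4 PBS and 5 LPS of small intestine, and 5 PBS and 4 LPS of colon. LPS, a bacterial endotoxin, was a single intraperitoneal injection of 2 mg/kg of an Escherichia coli preparation, and controls received PBS (buffered saline). Gpr37 encodes an orphan receptor found in glia, and the labels name no Cre for its deletion.

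As background, leukocytes first roll on selectins, then arrest through integrins that bind immunoglobulin-type adhesion molecules, and finally cross the endothelium at cell junctions. E-selectin (Sele) and P-selectin (Selp) are selectins of activated endothelium, and P-selectin is also stored in platelets. ICAM-1 (Icam1) and VCAM-1 (Vcam1) are the arrest ligands of leukocyte integrins. MAdCAM-1 (Madcam1) is the ligand by which lymphocytes home to gut vessels, and PECAM-1 (Pecam1) and VE-cadherin (Cdh5) are constitutive junction proteins of endothelium. Endotoxin acts through Toll-like receptor signalling and NF-kB, which is known to switch on several of these genes in endothelium. Icam1 and Vcam1 are also made by other cell types, including astrocytes in the brain, while Sele and Cdh5 are largely endothelial.

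The genes lie on 6 chromosomes of the mouse genome (GRCm38, GENCODE annotation). Icam1 is at chr9:21015985-21028817 on the plus strand, Madcam1 at chr10:79664559-79668537 on the plus strand and Cdh5 at chr8:104101625-104144511 on the plus strand. Sele (chr1:164048234-164057677) and Selp (chr1:164115264-164150026) are near neighbours on the plus strand of chromosome 1. Vcam1 (chr3:116109949-116129688) and Pecam1 (chr11:106654217-106750628) are on the minus strand. Promoters of 4 of the 7 genes were in the RefSeq table used (GRCm38.p6). The 250 bases before each start are shown for these 4, which include Icam1, the only member called by edgeR at 2 h. All 4 are on the plus strand, at chr9:21015690-21015939 (Icam1), chr1:164047984-164048233 (Sele), chr1:164115014-164115263 (Selp) and chr10:79664309-79664558 (Madcam1). Capitals mark matches to GGNNNTTCC, to an NF-kB consensus or to TGANTCA, on either strand.
Icam1: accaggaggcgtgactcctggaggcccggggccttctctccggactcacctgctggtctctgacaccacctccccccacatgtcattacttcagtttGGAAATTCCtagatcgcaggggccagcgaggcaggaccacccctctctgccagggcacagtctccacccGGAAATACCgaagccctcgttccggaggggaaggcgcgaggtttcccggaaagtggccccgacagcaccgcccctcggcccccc
Sele: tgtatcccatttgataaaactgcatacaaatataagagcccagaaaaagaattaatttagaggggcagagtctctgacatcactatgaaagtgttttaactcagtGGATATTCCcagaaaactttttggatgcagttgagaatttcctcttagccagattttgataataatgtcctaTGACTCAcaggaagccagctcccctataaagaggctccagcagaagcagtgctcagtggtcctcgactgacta
Selp: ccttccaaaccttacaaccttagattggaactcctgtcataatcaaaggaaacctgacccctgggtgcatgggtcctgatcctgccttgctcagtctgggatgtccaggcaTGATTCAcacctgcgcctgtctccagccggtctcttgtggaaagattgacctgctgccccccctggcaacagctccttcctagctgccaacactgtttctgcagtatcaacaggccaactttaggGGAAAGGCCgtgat
Madcam1: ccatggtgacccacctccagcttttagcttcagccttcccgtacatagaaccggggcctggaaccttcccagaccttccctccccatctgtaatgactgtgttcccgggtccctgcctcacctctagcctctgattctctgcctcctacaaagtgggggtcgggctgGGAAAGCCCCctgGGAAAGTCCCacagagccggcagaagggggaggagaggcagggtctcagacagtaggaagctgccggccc
The letters GGNNNTTCC, a loose form of the NF-kB site, were found on 1 strand or the other in 4 of these 4 promoters, against 15.7% of the 32851 promoters in the table. In Icam1 they begin 153 and 84 bases before the start, in Sele 145, in Selp 14 and in Madcam1 83 and 70. The NF-kB consensus proper had 2 matches, both in Madcam1 and both overlapping those just named, and 3.90% of all promoters had 1 or more. TGANTCA, the AP-1 motif, was present in Sele and Selp, 73 and 139 bases before the start, against 6.75% of all promoters. These matches describe letters only, and binding was not measured.

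Total counts per library ran from 1990744 to 33283346, so that 3 counts, taken as the floor of detection, came to 0.0933 to 1.46 CPM (read counts divided by the library's TMM-scaled size). The deleted gene was checked first. Gpr37 had 0 to 9 counts in the 18 knockout libraries (median 0) and 0 to 158 in the 19 libraries labelled wild type (median 59). Of the latter, 4 held 3 or fewer counts, all from LPS mice (colon of mice 3, 5 and 8, small intestine of mouse 3), so some results for wild type are also given without them. The small intestine of mouse 8 had 100 counts. Low counts were also seen in mice not labelled knockout elsewhere, with 0, 41, 6 and 0 counts in PBS colon and 1, 1, 12 and 0 in LPS colon at 2 h, and 0 in all 6 untreated submucosal small-intestinal libraries. Libraries of mice numbered 10 and below had more mitochondrial counts (4.24% to 26.0%) than those of mice numbered 11 and above (1.66% to 10.4%). The wild-type PBS colon group had none of the former, and the wild-type LPS colon group had 3 of 5. Labels give a mouse number at 24 h only. For the other libraries nothing says that replicates were separate animals, and their p-values then measure only the spread between these samples.

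Icam1 was the member that rose most clearly 2 h after LPS. In the small intestine its 4 PBS libraries stood at 16.3, 2.44, 44.0 and 37.3 CPM. The 4 LPS libraries stood at 1442, 1183, 1554 and 1259.9 CPM, so that the lowest LPS library was far above the highest PBS library. The mean rose from 25.0 ± 19.1 to 1360.0 ± 169 CPM (SD, n = 4 each), a log2 fold change of 5.74 ± 0.62 (SE) or 53.4-fold, with adjusted p = 5.38e-05 by the quasi-likelihood test of edgeR, adjusted after Benjamini and Hochberg. Icam1 was the 1 member called of 6 tested there, where 1.1% of all genes were called. In the colon the PBS libraries gave 35.2, 43.1, 40.0 and 17.5 CPM and the LPS libraries 648, 1119, 1657 and 1091 CPM, again without overlap. This was a rise of 5.06 ± 0.60 on the log2 scale (33.3-fold, adjusted p = 0.000293), and again Icam1 was the 1 member called of 6, where 0.778% of all genes were called. The difference between regions in the response, -0.68 ± 0.72, did not pass the test (adjusted p = 1).

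**Figure D1:**
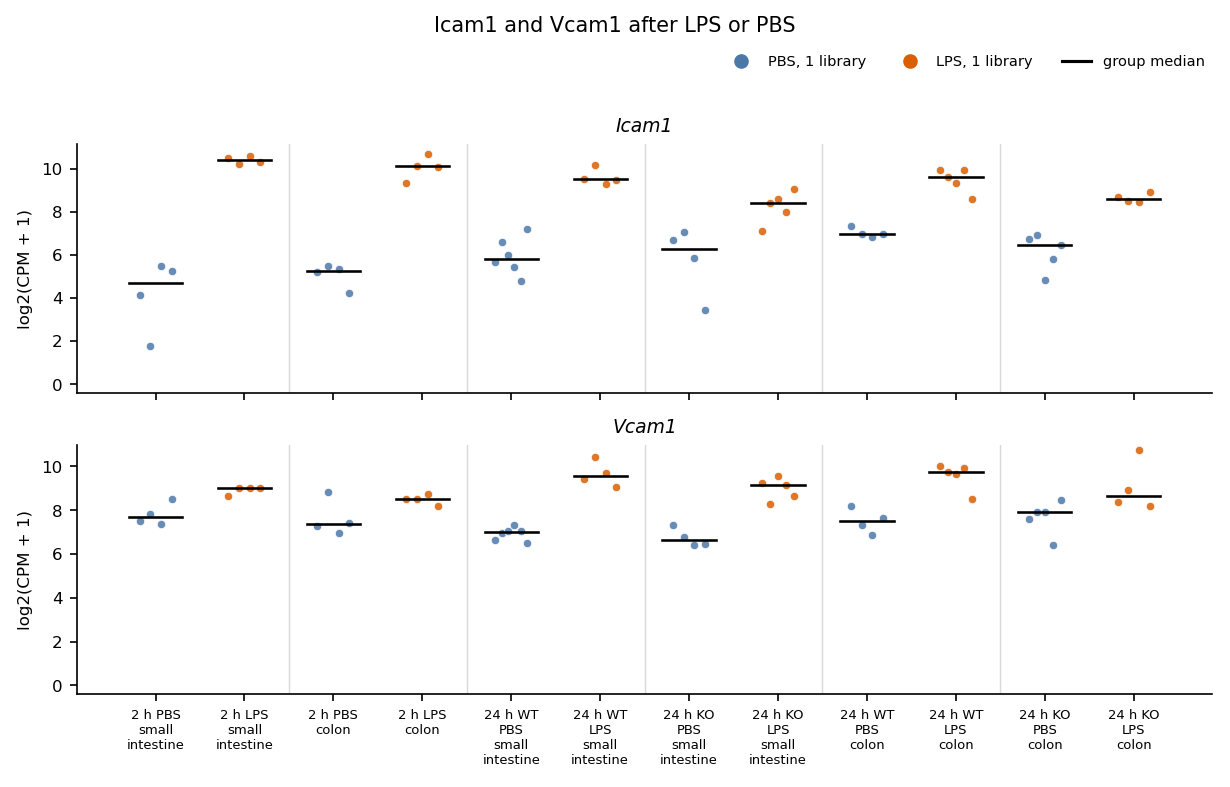
Icam1 and Vcam1 in every library of the 2 h and 24 h experiments. Each point is 1 library, the y axis is log2(CPM + 1), blue is PBS, orange is LPS and the black line is the group's median. LPS libraries of Icam1 lie above the PBS libraries in each of the 6 pairs of groups, from 648 to 1657 CPM at 2 h and from 136 to 1136 CPM at 24 h.

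Vcam1 was already present without LPS and moved far less at 2 h. In the small intestine the PBS libraries gave 183, 224, 165 and 363 CPM and the LPS libraries 398, 519, 509 and 513 CPM. The groups did not overlap, but the change of 1.05 ± 0.35 (2.07-fold) missed the threshold (adjusted p = 0.379). Colon PBS libraries gave 156, 449.8, 122 and 171 CPM and LPS libraries 357, 366, 422 and 295 CPM, overlapping because of PBS replicate 2. The colon change was 0.68 ± 0.35 (adjusted p = 0.732), and 1.27 ± 0.27 (adjusted p = 0.0494) without that library. Per kilobase of exon, Icam1 stood below Vcam1 in PBS small intestine (5.73 against 26.3 CPM per kb) and above it after LPS (312 against 54.7 CPM per kb). The same turn was seen in the colon, from 7.79 against 25.3 to 259 against 40.6 CPM per kb.

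After PBS at 2 h no library had more than 6.20 CPM of either selectin. Sele had 0.233, 0, 0 and 0 CPM in the colon after PBS, and 0.446, 27.1, 37.4 and 24.1 CPM after LPS. LPS replicate 1 stayed near the PBS level while the other 3 were far above it. Against the floor of 3 counts this is a mean at least 26.1-fold higher, but the quasi-likelihood test gave adjusted p = 0.229, whereas DESeq2 called it (adjusted p = 0.00987). All 4 small-intestinal PBS libraries had 0 counts of Sele and the LPS libraries had 0, 0, 9.10 and 4.63 CPM, at least 4.45-fold higher (adjusted p = 0.342) and at least 2.00-fold without LPS replicate 3.

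Selp in the colon had 0, 0, 0 and 6.20 CPM after PBS and 53.5, 128, 69.4 and 18.3 CPM after LPS, with no overlap. Its change of 5.37 ± 1.64 on the log2 scale missed the threshold of the quasi-likelihood test (adjusted p = 0.275) and passed that of DESeq2 (adjusted p = 0.0164). Without PBS replicate 4, which leaves 3 PBS libraries at 0 counts, the LPS mean was at least 74.3-fold above the floor of 3 counts (adjusted p = 0.0445). Small-intestinal PBS libraries had 0, 0.975, 0 and 0.719 CPM and LPS libraries 24.3, 0.402, 1.56 and 2.91 CPM, overlapping (4.14 ± 1.65, adjusted p = 0.65, and 2.00 ± 1.51 without LPS replicate 1). The log2 effect in the colon minus that in the small intestine was 0.87 ± 1.76 for Sele and 1.23 ± 2.26 for Selp, and neither was called (adjusted p = 1 for both). With edgeR 0 of 13107 genes, and 0 of 6 members, had a called difference in response between regions at 2 h (background 0%). At an unadjusted p under 0.05 there were 452 such genes, and DESeq2 called 57, with 0 members among either.

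Madcam1 was too low at 2 h to be fitted. It was at 0 in all 4 PBS colon libraries and in 3 of 4 LPS colon libraries, the exception being LPS replicate 2 with 190 counts (38.1 CPM). The 1 small-intestinal library with counts was PBS replicate 4 (3.71 CPM). With counts in 1 library of 8 in each region, an exact two-sided permutation test can give no p other than 1 and says nothing here.

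Neither junction gene was called at 2 h. Pecam1 in the small intestine had 10.2, 39.5, 151 and 89.2 CPM after PBS and 78.6, 0, 65.7 and 52.2 CPM after LPS (-0.56 ± 1.05, adjusted p = 1). In the colon it had 109, 14.9, 100.03 and 95.6 CPM after PBS and 8.25, 84.2, 143 and 82.9 CPM after LPS (-0.01 ± 1.05, adjusted p = 1). Cdh5 had 3.75, 17.1, 52.2 and 12.2 CPM after PBS and 16.4, 0, 23.0 and 12.1 CPM after LPS in the small intestine (-0.73 ± 1.17, adjusted p = 1). Colon Cdh5 had 13.3, 0, 14.3 and 10.3 CPM after PBS and 13.8, 30.1, 36.1 and 39.6 CPM after LPS (1.65 ± 1.20, adjusted p = 0.948). In each of these 4 comparisons the groups overlapped.

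**Figure D2:**
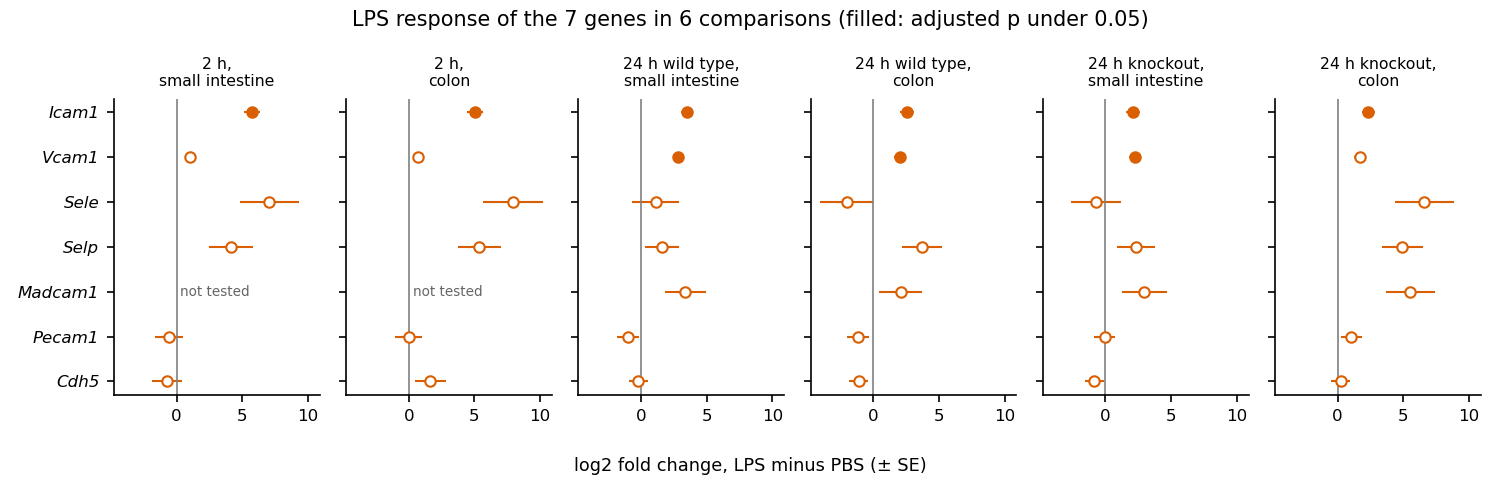
Log2 fold change of LPS against PBS for the 7 genes in the 6 LPS comparisons, with bars of 1 SE. Filled points passed an adjusted p under 0.05: Icam1 in 6 of 6 comparisons and Vcam1 in 3 of 6. Sele, Selp and Madcam1 have the widest bars.

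Since Pecam1 and Cdh5 mark endothelium, endothelial RNA was looked for with 18 other markers (Kdr, Tek, Flt1, Emcn, Cldn5 and others). All libraries held some: their summed level was 335 to 1215 CPM in PBS colon, 484 to 1069 in LPS colon, 355 to 1167 in PBS small intestine and 247 to 839 in LPS small intestine at 2 h. None of the 18 was called by edgeR in either 2 h comparison (0 in small intestine and 1 in colon at an unadjusted p under 0.05, and 0 and 1 by DESeq2), and their median log2 change was -0.05 in both. LPS small-intestine replicate 2 had 7 of the 18 markers at 0 (Tek, Egfl7, Cldn5, Plvap, Erg, Sox17 and Robo4) and 11 at 3 or fewer counts. In that library Pecam1 and Cdh5 were at 0, as was Sele, which was also at 0 in replicate 1. Icam1 had 1183 CPM there, the lowest of the 4 LPS libraries, and Vcam1 519 CPM, the highest. With the summed endothelial level as a covariate, an alternative chosen after seeing the data, Icam1 rose by 5.88 ± 0.60 in the small intestine (adjusted p = 5.88e-05) and 4.93 ± 0.58 in the colon (adjusted p = 0.000342). In bulk samples like these, fewer cells of a type and less RNA per cell cannot be told apart. Which cells held the Icam1 RNA was not tested.

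**Figure D3:**
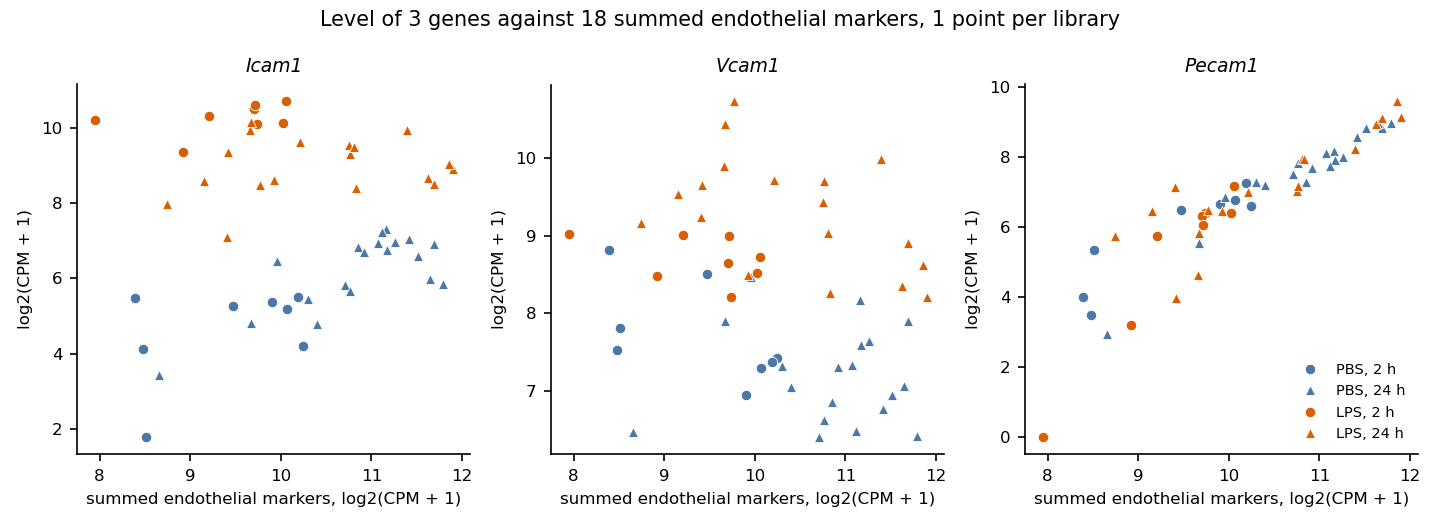
Icam1, Vcam1 and Pecam1 (y axes, log2(CPM + 1)) against the summed level of the 18 endothelial markers (x axes, log2(CPM + 1)), with 1 point per library of the 2 h (circles) and 24 h (triangles) experiments, PBS in blue and LPS in orange. Pecam1 climbs with the endothelial sum, while LPS libraries of Icam1, from 136 CPM up, are found at low and high sums. The leftmost point is LPS small-intestine replicate 2 at 2 h, with a sum of 247 CPM, Icam1 at 1183 and Pecam1 at 0.

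At 24 h in wild-type mice both arrest ligands rose. Icam1 in the small intestine had a lowest, median and highest value of 26.4, 55.9 and 148 CPM in the 6 PBS libraries. The LPS libraries gave 742, 1136, 628 and 714 CPM, all above the highest PBS library. Icam1 rose by 3.51 ± 0.48 (11.4-fold, from 70.7 ± 44.4 CPM, n = 6, to 805 ± 226 CPM, n = 4, adjusted p = 1.05e-05 by edgeR's quasi-likelihood test). Vcam1 had 88.5, 127 and 158 CPM as lowest, median and highest after PBS, against 693, 1386, 836 and 523 CPM after LPS. It rose by 2.82 ± 0.41 (7.06-fold, adjusted p = 2.33e-05). These 2 of 7 members were called, where 7.17% of all genes were.

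In wild-type colon Icam1 had 158, 122, 113 and 124 CPM after PBS and 972, 789, 646, 982 and 387 CPM after LPS. Vcam1 had 287, 159.9, 115 and 199 CPM after PBS and 1019.7, 844, 801, 957 and 358 CPM after LPS. For both genes every LPS library exceeded every PBS library, and mouse 8 was the lowest of the LPS group. Icam1 rose by 2.55 ± 0.52 (5.84-fold, adjusted p = 0.00293) and Vcam1 by 2.07 ± 0.45 (4.19-fold, adjusted p = 0.00438), the 2 members called of 7, where 7.96% of all genes were called. Among mice numbered 11 and above alone, Icam1 rose by 2.79 ± 0.45 (adjusted p = 0.000628) and Vcam1 by 2.32 ± 0.38 (adjusted p = 0.000637). That restriction left 2 LPS libraries, and mice numbered 10 and below had no PBS colon library to compare. Leaving out the libraries low in Gpr37 kept the same libraries of these groups, and the rises were 2.80 ± 0.62 (adjusted p = 0.0109) and 2.33 ± 0.53 (adjusted p = 0.0131).

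The level of Icam1 per kilobase was above that of Vcam1 after LPS in wild type, but the gap was smaller than at 2 h. It was 185 against 96.9 CPM per kb in small intestine and 173 against 89.7 in colon. After PBS at 24 h Icam1 was already above Vcam1 in wild type. These PBS means were 16.2 against 13.7 CPM per kb in small intestine and 29.7 against 21.4 in colon. The 2 h and 24 h libraries come from different tables and mice of different genotype labels, so the times were not tested against each other.

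In knockout mice Icam1 rose in both regions and Vcam1 in the small intestine. Icam1 in knockout small intestine had 103, 132, 56.5 and 9.79 CPM after PBS and 136, 339, 381, 249 and 522 CPM after LPS. The groups did not overlap, though the lowest LPS library (mouse 11) was just above the highest PBS library. Its rise of 2.11 ± 0.51 (adjusted p = 0.0418) was called in 2 of 9 fits that each left out 1 library, those without LPS mouse 11 (adjusted p = 0.0116) or PBS mouse 15 (adjusted p = 0.0278). The other 7 gave 1.82 to 2.37 (adjusted p = 0.0618 to 0.131). It was not called among mice numbered 11 and above (1.84 ± 0.46, adjusted p = 0.0704). Vcam1 had 157, 108, 84.5 and 87.4 CPM after PBS and 602, 307, 746, 574 and 393 CPM after LPS, without overlap. It rose by 2.26 ± 0.45 (4.80-fold, adjusted p = 0.00764), and it was called in 9 of 9 fits with 1 library left out. So 2 of 7 members were called in knockout small intestine, where 0.718% of all genes were.

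Knockout colon gave Icam1 106, 120.0, 27.1, 55.3 and 86.8 CPM after PBS and 407, 364, 354 and 478 CPM after LPS. All 4 LPS libraries were above all 5 PBS libraries, and the rise was 2.34 ± 0.49 (5.08-fold, adjusted p = 0.0142), which was not called in a fit of these groups alone (adjusted p = 0.0984). Icam1 was the 1 member called of 7 by edgeR, where 0.718% of all genes were called. Vcam1 had 192, 237, 237, 83.4 and 353 CPM after PBS and 325, 481, 1703 and 294 CPM after LPS. Mouse 2 (1703 CPM) and mouse 17 (481 CPM) were above the PBS range, and mice 11 and 21 were within it. The Vcam1 change of 1.67 ± 0.42 just missed the threshold (adjusted p = 0.0523), and among mice numbered 11 and above, which leaves out mouse 2, it was 1.13 ± 0.37 (adjusted p = 0.2). DESeq2 called it (adjusted p = 0.00701), as did the fits without LPS mouse 11 or 21 or PBS mouse 7 (1.92 to 1.93, adjusted p = 0.0175 to 0.0344). Without LPS mouse 2 alone the change was 0.73 ± 0.37 (adjusted p = 0.543). Mouse 2 had the least endothelial RNA of its group, 871 CPM in sum against 3171 to 3812 in the other 3, and 17.9% mitochondrial counts, and the part of the latter in its Vcam1 level was not tested.

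The response to LPS was compared between genotypes directly. In the small intestine the log2 effect of LPS on Icam1 in knockouts minus that in wild type was -1.40 ± 0.66 (unadjusted p = 0.0435 in edgeR), which did not pass adjustment (adjusted p = 1). Within the LPS mice, every knockout small-intestine library (136 to 522 CPM) was below every wild-type library (628 to 1136 CPM). That difference, -1.31 ± 0.48, missed the threshold too (adjusted p = 0.461), where 0.0134% of all genes were called. Those called were 2 genes, against 181 by DESeq2, 0 with the groups alone and 0 to 10 with 1 library left out. At an unadjusted p under 0.05 in edgeR there were 1137. How many of all genes had no overlap between these 2 groups was not counted. In the colon the ranges of LPS libraries overlapped (354 to 478 CPM in knockout, 387 to 982 in wild type). The genotype difference in response there was -0.20 ± 0.68 for Icam1 and -0.40 ± 0.60 for Vcam1 (adjusted p = 0.947 and 0.837). For Vcam1 in the small intestine it was -0.56 ± 0.58 (adjusted p = 1).

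For 0 of 7 members was the response to LPS called as different between genotypes, in either region, where 0% of all genes were called by edgeR. At an unadjusted p under 0.05 there were 578 genes for the small intestine and 2009 for the colon, 1 member among each, and DESeq2 called 59 and 350, with 0 members among them. Between knockout and wild type with PBS, 0 of 7 members and 0% of all genes were called in either region (256 and 629 genes at an unadjusted p under 0.05, 55 and 78 by DESeq2, 0 members in all). With LPS, 0 of 7 members were called in the colon, where 0.429% of all genes were called (2448 genes with 2 members at an unadjusted p under 0.05, 766 with 0 members by DESeq2). Those called were 64 genes, against 0 without the wild-type libraries low in Gpr37 and 7 (without knockout mouse 11) to 141 (without wild-type mouse 16) with 1 library left out. A p that misses the threshold leaves the difference undecided, and the SE of 0.66 to 0.68 for Icam1 shows how wide these estimates are.

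The 2 regions at 24 h come largely from the same mice. The log2 effect of LPS on Icam1 in the colon minus that in the small intestine was -0.96 ± 0.67 in wild type and 0.23 ± 0.68 in knockouts (adjusted p = 0.783 and 1). For Vcam1 the differences were -0.76 ± 0.58 and -0.60 ± 0.60 (adjusted p = 0.815 and 1). No member of 7 was called in either genotype, with 0% of all genes called by edgeR, 1126 and 615 genes at an unadjusted p under 0.05, and 125 and 71 called by DESeq2. Of the members, 0 and 1 were among the former and 0 among the latter.

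Selectins at 24 h varied widely between mice. Selp in wild-type colon had 25.2, 4.99, 1.44 and 3.95 CPM after PBS and 130.3, 22.9, 44.8, 0 and 389 CPM after LPS. Mouse 5 had none and mouse 8 had the most of all 37 libraries. The change of 3.73 ± 1.54 was not called (adjusted p = 0.122), but DESeq2 called it (adjusted p = 0.0474), as did the fit with the endothelial level as a covariate (5.41 ± 1.54, adjusted p = 0.0299). With single libraries left out this change ran from 2.48 to 5.18. In knockout colon Selp had 8.31, 5.35, 0, 2.46 and 0 CPM after PBS and 61.3, 197, 8.58 and 122 CPM after LPS. Those groups did not overlap (4.93 ± 1.53, adjusted p = 0.141, and 0.0239 with DESeq2).

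Selp in the small intestine overlapped between treatments in both genotypes. Wild-type libraries ranged from 0.271 to 44.2 CPM after PBS (median 9.76) and had 39.5, 33.6, 17.2 and 92.3 CPM after LPS (1.60 ± 1.27, adjusted p = 0.51). Knockout libraries had 8.22, 15.7, 5.38 and 0.397 CPM after PBS and 0.459, 129, 27.6, 0 and 27.3 CPM after LPS (2.31 ± 1.44, adjusted p = 0.601). With single libraries left out the change ran from 0.93 to 3.04 in knockouts and from 1.06 to 2.38 in wild type.

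Sele at 24 h was seen in every library of 1 group, knockout LPS colon, with 10.9, 23.6, 8.58 and 7.35 CPM. Knockout PBS colon had 0 in 4 of 5 libraries and 0.478 CPM in mouse 20. Wild-type LPS colon had 0 in 4 of 5 libraries and 0.844 CPM in mouse 8, and wild-type PBS colon 0 in 3 of 4 libraries and 3.03 CPM in mouse 14. The knockout LPS group thus overlapped with none of the other 3 colon groups. The LPS response in knockout colon (6.60 ± 2.26, adjusted p = 0.202), the difference from wild type with LPS (6.09 ± 2.25, adjusted p = 0.184) and the genotype difference in response (8.63 ± 2.97, adjusted p = 0.211) all missed the threshold. Against the floor of 3 counts, the LPS response was at least 24.2-fold without knockout PBS mouse 20 (adjusted p = 0.154 in edgeR). The difference from wild type was at least 17.8-fold without wild-type LPS mouse 8 (adjusted p = 0.181). The genotype difference in response was 2.75 ± 9.08 without wild-type PBS mouse 14 (adjusted p = 0.959). Without wild-type LPS mouse 8 it was 12.4 ± 3.76 (adjusted p = 0.21). Endothelial markers were also highest in this group, with a median sum of 3236 CPM against 968 in wild-type LPS colon, 1672 in knockout PBS colon and 2222 in wild-type PBS colon. With that level as a covariate and all libraries kept, the 3 values were 6.11 ± 2.07 (adjusted p = 0.198), 4.41 ± 2.06 (adjusted p = 0.347) and 6.05 ± 2.92 (adjusted p = 0.468). The highest Sele values in the small intestine were 6.66 CPM with LPS (wild type, mouse 13) and 4.10 CPM with PBS (wild type, mouse 23).

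Madcam1 at 24 h was at most 4.05 CPM in any PBS library. With LPS it had 17.5, 9.35, 0, 0.227 and 5.07 CPM in wild-type colon and 41.5, 2.13, 3.48 and 4.82 CPM in knockout colon. The small intestine gave 11.0, 0, 10.6 and 15.4 CPM in wild type and 0, 22.2, 1.79, 0 and 11.9 CPM in knockouts. In knockout colon the LPS libraries all exceeded the PBS libraries (0 to 1.04 CPM), while the groups overlapped in the other 3 comparisons. The knockout colon change was 5.54 ± 1.84 (adjusted p = 0.186, and 0.0267 with DESeq2), and 3.67 ± 1.79 without LPS mouse 11. In wild-type small intestine the change was 3.39 ± 1.53 (adjusted p = 0.187), and 4.49 ± 1.42 (adjusted p = 0.0488) among mice numbered 11 and above.

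**Figure D4:**
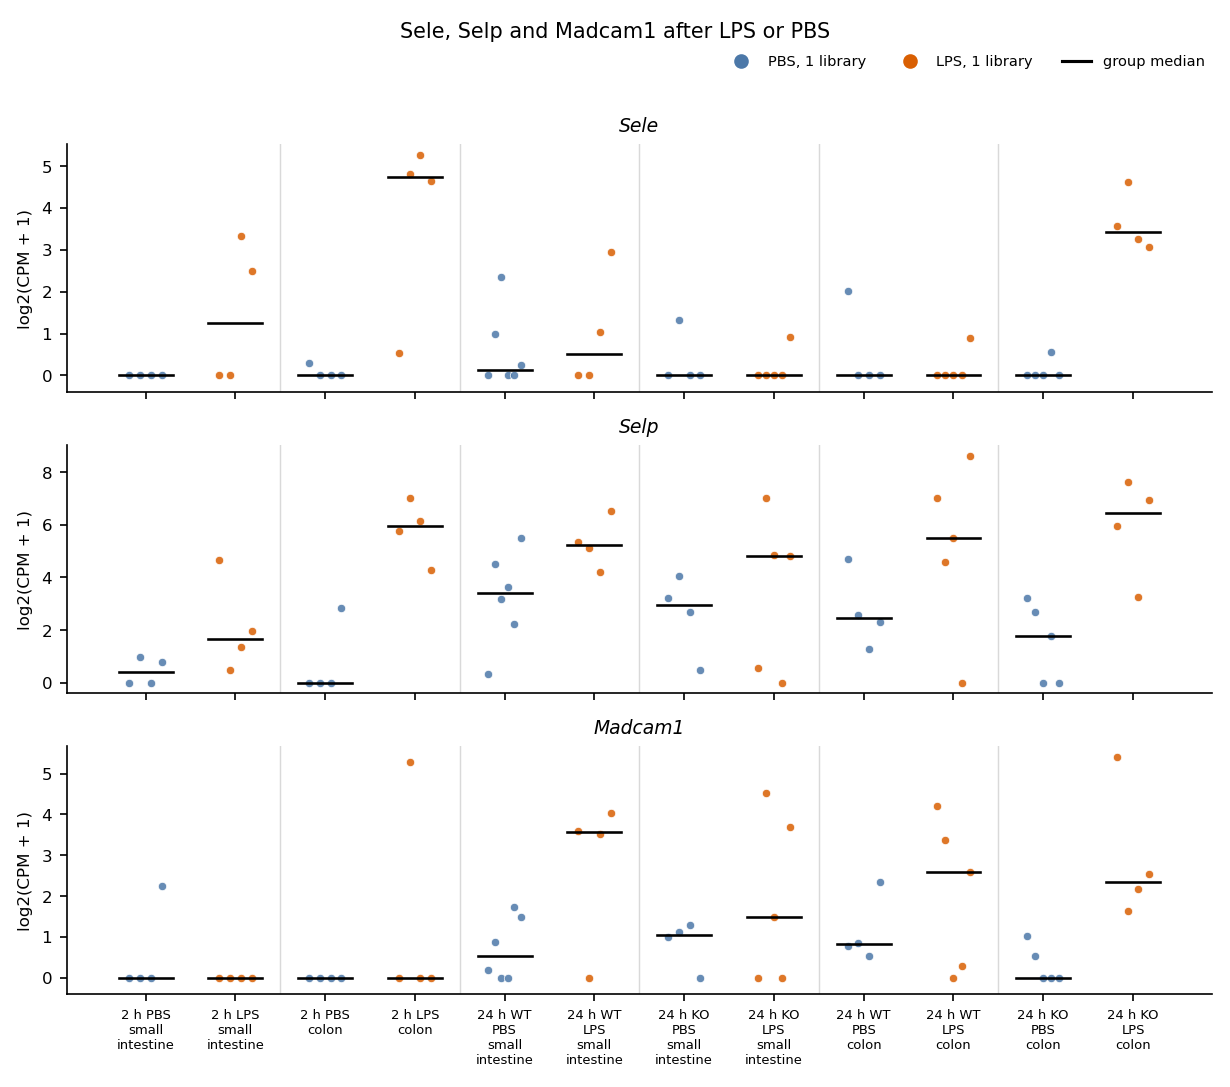
Sele, Selp and Madcam1 in every library of the 2 h and 24 h experiments, as log2(CPM + 1), with PBS in blue, LPS in orange and the group's median as a black line. Sele lies above 7 CPM in all 4 knockout LPS colon libraries at 24 h and is at 0 in most others. Selp spreads from 0 to 389 CPM within wild-type LPS colon.

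Pecam1 at 24 h was not called in any of the 4 LPS comparisons. In wild-type colon it had 288, 277, 156 and 256 CPM after PBS and 301, 127, 14.6, 23.6 and 87.8 CPM after LPS, so 4 of 5 LPS libraries lay below every PBS library (-1.14 ± 0.81, adjusted p = 0.404). In knockout colon it had 241, 457, 45.8, 181 and 115 CPM after PBS and 489.7, 557, 89.5 and 568.4 CPM after LPS (1.03 ± 0.81, adjusted p = 0.651). Small-intestinal changes were -0.99 ± 0.81 in wild type and -0.07 ± 0.81 in knockouts (adjusted p = 0.526 and 0.994). The log2 differences of Cdh5 were -0.19 ± 0.70 and -0.85 ± 0.72 in wild-type and knockout small intestine and -1.11 ± 0.72 and 0.24 ± 0.72 in the colon (adjusted p = 0.919, 0.747, 0.357 and 0.938). Its levels ran from 1.59 CPM (wild-type LPS colon, mouse 5) to 93.2 CPM (wild-type PBS small intestine, mouse 14).

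The summed endothelial level was set beside the junction genes. In wild-type colon the sum was 1855 to 2455 CPM after PBS and 682 to 2694 after LPS, and the markers' median log2 change was -1.27. Of the 18 markers, 1 was called there, Tek, the angiopoietin receptor (-3.33 ± 1.06, adjusted p = 0.0471). In the other 3 LPS comparisons at 24 h none of the 18 was called by edgeR (at an unadjusted p under 0.05 there were 2 in wild-type small intestine and 0 in either knockout region, and DESeq2 called 1, 0 and 0). Their medians were -0.76 (wild-type small intestine), -0.68 (knockout small intestine) and 0.62 (knockout colon). With the endothelial sum as a covariate, Icam1 rose by 3.85 ± 0.44 in wild-type small intestine and 2.98 ± 0.49 in wild-type colon (adjusted p = 4.79e-07 and 0.000369). In knockouts it then rose by 2.60 ± 0.49 and 2.17 ± 0.43 (adjusted p = 0.00434 and 0.00826), and Vcam1 by 1.96 ± 0.42 and 1.68 ± 0.39 (adjusted p = 0.0128 and 0.0265).

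Other adhesion and junction molecules of the vessel wall were followed as a list of 18 genes. At 2 h 0 of 15 tested were called by edgeR in either region (0 and 1 at an unadjusted p under 0.05 in small intestine and colon, 0 and 0 by DESeq2). In wild-type small intestine at 24 h, 1 of 17 rose, Cd47, the widely made ligand of SIRP-alpha (0.95 ± 0.22, adjusted p = 0.00588). There 3 fell, namely Aoc3, the vascular adhesion protein VAP-1 (-4.85 ± 1.52), and the junction catenins Jup (-1.54 ± 0.41) and Ctnnd1 (-1.23 ± 0.38). In wild-type colon Cd34, a sialomucin of endothelium and other cells, fell by 3.53 on the log2 scale (787 ± 206 to 68.1 ± 74.6 CPM, adjusted p = 0.01). Icam5 was also called higher in wild-type colon, but it was at 0 in all 4 PBS libraries and at 1.45 ± 2.76 CPM after LPS. In knockouts 0 of 17 were called by edgeR in either region (5 and 3 at an unadjusted p under 0.05, 0 and 1 by DESeq2).

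The leukocyte receptors that bind these molecules were followed as 11 counter-receptors. At 2 h 0 of the 8 tested were called by edgeR in either region, with 1 at an unadjusted p under 0.05 in each. DESeq2 called 1 in the small intestine (Cd44) and 0 in the colon. At 24 h in wild type, 1 of 11 rose in small intestine and 2 in colon. Cd44, which binds hyaluronan and E-selectin and is made by many cell types, rose by 2.91 ± 0.42 in the small intestine (83.9 ± 21.4 to 633 ± 40.3 CPM, adjusted p = 1.82e-05) and 2.69 ± 0.47 in the colon (adjusted p = 0.000537). Itgam, a subunit of the receptor for ICAM-1 on myeloid cells, rose by 4.45 ± 1.44 in the colon, from 0.708 ± 0.411 to 16.0 ± 14.3 CPM (adjusted p = 0.05, just under the threshold). In knockouts 0 of 11 were called by edgeR in either region (6 and 5 at an unadjusted p under 0.05, 2 and 1 by DESeq2).

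Some neutrophil markers rose at 24 h. Of 6 neutrophil markers tested, 4 rose in wild-type small intestine (S100a8, S100a9, Retnlg and Ngp), 2 in wild-type colon (Ly6g and Retnlg), and 1, S100a8, in each knockout region. The calcium-binding protein gene S100a8 averaged 0.259 ± 0.345 CPM after PBS and 281 ± 191 CPM after LPS in wild-type small intestine. The summed neutrophil level was 7.41 to 823 CPM in wild-type LPS small intestine, 9.32 to 2315 in wild-type LPS colon, 8.52 to 1729.7 in knockout LPS small intestine and 2.09 to 489 in knockout LPS colon. At 2 h neither of the 2 tested markers was called by edgeR or DESeq2 (1 had an unadjusted p under 0.05, in the small intestine), and the sum was at most 7.67 CPM except in 1 LPS group (up to 158). The part of these cells in the 24 h levels of Icam1 and Vcam1 was not tested. Of 8 macrophage markers, 1 was called, Cx3cr1, lower in wild-type small intestine (-7.72 ± 1.81), and of the lymphocyte markers 1, Jchain, higher in the small intestine at 2 h (4.91 ± 1.14, adjusted p = 0.0478).

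Glial markers were present in every library, with a summed level of at least 1085 CPM at 2 h and 24 h. Markers of other cells were higher in some groups. In PBS colon at 2 h the median sum was 37641 CPM for smooth muscle and 5534 for glia. In wild-type PBS colon at 24 h it was 14907 CPM for fibroblasts and 3972 for glia. Wild-type LPS colon at 24 h had 888 CPM for smooth muscle and 3164 for glia. The share of each cell type in these libraries was not tested. Of 8 glial markers, Gfap, the intermediate filament of reactive glia, rose in wild-type small intestine (2.58 ± 0.63, adjusted p = 0.00928). Fabp7, a glial fatty-acid-binding protein, fell there (-3.84 ± 0.95) and in wild-type colon (-2.67 ± 0.86). Of the fibroblast markers Col1a1 and Cd81 fell in both wild-type regions, Cd81 also in knockout small intestine, and Ccl19 rose in wild-type small intestine (4.81 ± 1.19). None of the listed markers of venules, lymphatic vessels, platelets, smooth muscle, pericytes, mesothelium, epithelium, neurons or interstitial cells of Cajal was called by edgeR in any of the 6 LPS comparisons. Of 258 such tests 37 had an unadjusted p under 0.05, and DESeq2 called 12.

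Untreated mice were compared between layers and between regions. Madcam1 in the colon was at 0 in 4 of 5 myenteric libraries, with 1 count in the fifth, and at 9.62, 17.5, 124, 40.0 and 2.54 CPM in the submucosal plexus. Against the floor of 3 counts the submucosal mean was at least 66.5-fold higher (adjusted p = 0.00134 by edgeR's quasi-likelihood test), and at least 30.0-fold higher without submucosal replicate 4 (adjusted p = 0.00468). Madcam1 was the 1 member called of 6 tested in the colon, where 21.8% of all genes were called. Icam1 was also higher in every submucosal colon library (82.5, 88.5, 85.1, 129 and 93.3 CPM) than in any myenteric one (56.8, 22.4, 39.3, 13.3 and 68.6 CPM). Its difference of 1.26 ± 0.45 just missed the threshold (adjusted p = 0.051). It was called with RLE size factors (0.0398), the replicate block (0.0443), these 2 groups alone (0.0468) and DESeq2 (0.0216), and without myenteric replicate 5 (adjusted p = 0.0204). Selp was at 0.381 to 9.26 CPM in submucosal and 0 to 2.85 CPM in myenteric colon (2.57 ± 1.55, adjusted p = 0.248).

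**Figure D5:**
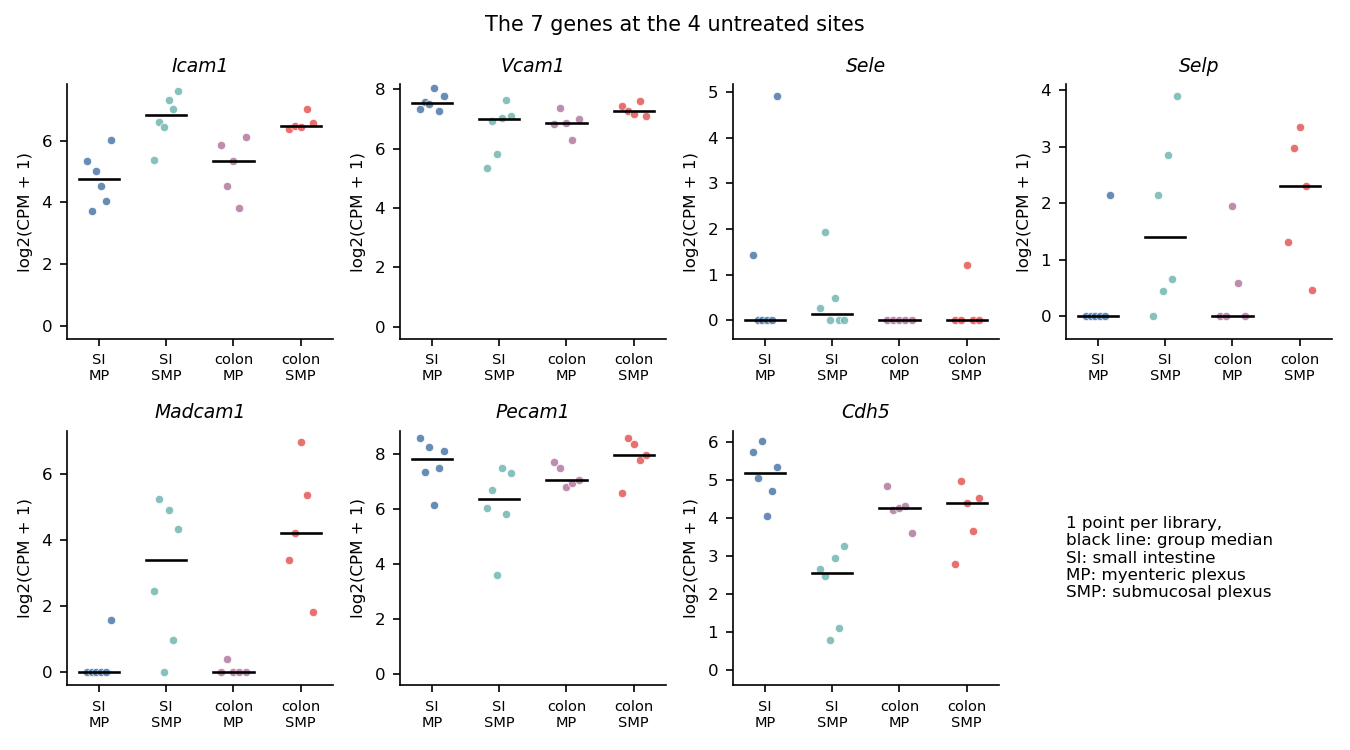
The 7 genes in the 4 sites of untreated mice, as log2(CPM + 1), with 1 point per library and the group's median as a black line. Madcam1 is at or near 0 in the myenteric plexus of either region and reaches 124 CPM in the submucosal colon. Cdh5 in submucosal small intestine lies between 0.719 and 8.57 CPM, below every myenteric library of that region.

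In the small intestine 5 of 6 members differed between layers, against a background of 43.5% of all genes. Icam1 had a lowest, median and highest of 40.4, 113 and 196 CPM in the submucosal and 12.3, 26.5 and 63.6 CPM in the myenteric plexus (1.93 ± 0.42, adjusted p = 0.000909). Madcam1 had 0, 11.8 and 36.6 CPM against 0 in 5 of 6 myenteric libraries and 2.00 CPM in the sixth (5.22 ± 1.28, adjusted p = 0.0023). Without that sixth library, replicate 6, the myenteric libraries were all at 0 and the submucosal mean was at least 23.8-fold above the floor (adjusted p = 0.000922). The other 3 were lower in the submucosal plexus. Cdh5 had 0.719, 4.90 and 8.57 CPM against 15.5, 35.7 and 64.0 CPM, without overlap (-3.06 ± 0.51, adjusted p = 7.12e-05). Pecam1 had 11.1, 83.1 and 182 CPM against 69.7, 229 and 386 CPM (-1.26 ± 0.47, adjusted p = 0.0341), and Vcam1 39.6, 127 and 199 CPM against 154, 184 and 259.6 CPM (-0.76 ± 0.28, adjusted p = 0.0338). With single libraries left out, Pecam1 was called in 7 of 12 fits, not without myenteric replicate 1, 3 or 6 or submucosal replicate 1 or 5 (adjusted p = 0.0565 to 0.0812). Vcam1 was called in 8 of 12, not without submucosal replicate 1 or 3 or myenteric replicate 4 or 6 (adjusted p = 0.0584 to 0.0774). Neither Pecam1 nor Vcam1 was called in a fit of these groups alone.

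Endothelial markers moved with Cdh5 and Pecam1 between layers of the small intestine. Of 18, 14 were lower in the submucosal plexus (median -2.06), with a sum of 246 to 1388 CPM against 755 to 2240.5 CPM in the myenteric plexus. In the same comparison 10 of 11 leukocyte counter-receptors were higher, among them Itgb7 (5.71 ± 0.90), and Itgb1 was lower. All 8 macrophage markers were higher and all 8 glial markers lower, so these libraries hold a different mix of RNA, whose part in the differences was not tested. In the colon 8 of 11 counter-receptors and 7 of 8 macrophage markers were higher in the submucosal plexus and 5 of 8 glial markers lower, while of the 18 endothelial markers 2 were higher and 1 lower. All 7 lymphocyte markers were higher in the submucosal plexus of either region, with a median sum of 23470 against 32.2 CPM in the colon and 31054 against 12.4 CPM in the small intestine. Ackr1, the chemokine-binding receptor of venules, had 11.5, 30.0, 141, 62.2 and 6.47 CPM in the submucosal colon libraries, listed and ranked as for Madcam1 above, and 0 to 20.7 CPM in myenteric colon (3.18 ± 1.22, adjusted p = 0.0655). The part of either in the Madcam1 difference was not tested.

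Between regions, Cdh5 in the submucosal plexus was higher in the colon (5.92, 30.2, 20.1, 11.6 and 22.1 CPM) than in the small intestine (5.29, 4.51, 0.719, 6.72, 1.13 and 8.57 CPM), with overlap through colon replicate 1. The difference of 1.98 ± 0.51 was called (adjusted p = 0.0242), the 1 member of 6, where 5.18% of all genes were called. The call was lost without colon replicate 2 (1.71, adjusted p = 0.0893) or 6 (1.89, adjusted p = 0.0577). Of the endothelial markers, 7 of 18 were higher in the colon there (median 1.83). In the myenteric plexus 0 of 6 members differed between regions by edgeR, where 3.19% of all genes were called (2339 genes with 1 member at an unadjusted p under 0.05, 1035 with 0 members called by DESeq2). The lowest p of a member there was that of Vcam1, 76.7 to 162 CPM in the colon and 154 to 259.6 CPM in the small intestine (-0.70 ± 0.30, adjusted p = 0.229). For Cdh5 the difference between layers depended on the region, by 3.01 ± 0.71 (adjusted p = 0.0419), the 1 member of 6 where 1.19% of all genes were called. With the replicate block it was not called (2.92, adjusted p = 0.0804). With 1 library left out it was called in 13 of 22 fits. The other 9 lacked colon myenteric replicate 2, 3, 4 or 5, small-intestinal myenteric replicate 1 or 3, or colon submucosal replicate 2, 4 or 6, and gave 2.75 to 3.01 (adjusted p = 0.0519 to 0.0868).

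Per kilobase of exon, Pecam1 had the highest mean of the 7 in untreated myenteric plexus (37.1 CPM per kb in small intestine, 24.2 in colon) and in submucosal colon (41.2). In submucosal small intestine Icam1 was highest (27.0 CPM per kb against 15.4 for Pecam1). The means of Sele and Selp were below 2 CPM per kb at all 4 sites, and the highest of them, Sele in myenteric small intestine, was 1.77 with and 0.117 without replicate 6. In submucosal colon the mean of Madcam1 was 26.9 CPM per kb, and 12.1 without replicate 4, and that of Icam1 22.0. Of the pairs of neighbours in these orders 21 overlapped over libraries, and 3 did not. Those were Vcam1 above Cdh5 in myenteric small intestine and in submucosal colon, and Cdh5 above Selp in myenteric colon.

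The genes whose pattern was most like a member's were found by Spearman correlation over the libraries of 1 experiment, as a description. Over the 16 libraries at 2 h, which share treatment groups, Icam1 was followed most closely by Slfn2 (0.98), Tnfsf9 (0.96), Ccrl2 (0.96), Tnfaip3 (0.93) and Gpr84 (0.92). Vcam1 was closest to Tnf (0.87), Cxcl10, Ifit3b, Cd14 and Neurl3, and Sele to Tmem173 (0.86), Sod2, Stc1, Irgm2 and Irf1. Selp was closest to Ackr1 (0.86), then Tnfaip2, Ccl8, Csf3 and Pfkfb3. Pecam1 was closest to Gpihbp1 (0.89), a protein of capillary endothelium, then Lpl, Tmco1, Egfl7 and Ccdc152, and its correlation with Icam1 was 0.0. Cdh5 had no gene above 0.80 (Zfp58).

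Over the 22 untreated libraries, Pecam1 was closest to the endothelial genes Emcn (0.93), Adgrl4 (0.92), Esam (0.91), Robo4 (0.88) and Cd300lg (0.86), and Cdh5 to Adgrf5 (0.95), Bcam (0.90), Robo4 (0.89), Snrk (0.88) and Gpr146 (0.88). Icam1 there was closest to Scpep1, Syngr2 and Tor4a (0.92 each), then Rhog and Cdc42 (0.90 each). Its correlation with Pecam1 was 0.01 and with Madcam1 0.74. Madcam1 was closest to Junb (0.89), Adamdec1, Tmem236, Cxcl13 and Slco2a1, and Selp to Madcam1 (0.78), Gadd45b, Scpep1, Cxcl13 and Cish. Vcam1 was closest to Chrnb4 (0.84), then Vps4a, Stard3nl, Stam and Camk1.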

How the data were processed

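Smart-seq2 RNA sequencing of enteric glia was analysed in 75 libraries, without molecular identifiers. Floors cover counting error only, while SEs and SDs hold the spread between libraries. The authors deposited raw counts per gene symbol in 2 tables. Per the submitters' processing notes the tools were Trim Galore 0.4.4, STAR 2.5.3 and DESeq2, with the GRCm38 build. The counter, its annotation and its use of strand are not given in the sources used here. No other column of per-sample values went unused (0).

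From these counts, each experiment (untreated, 2 h, 24 h) was fitted on its own over all its groups in edgeR 4.0.16 (R 4.3.3, limma 3.58.1), with filterByExpr, TMM scaling and the quasi-likelihood test (glmQLFit, glmQLFTest). The filter left 14090 genes for untreated libraries, 13107 at 2 h and 14903 at 24 h. Of the 7 members it kept 6 (not Sele), 6 (not Madcam1) and 7. A gene was called at a Benjamini-Hochberg adjusted p under 0.05 over all genes tested, in 20 comparisons. CPM are scaled by TMM, and fold changes are log2 with their SE. Depth set the floor, 3 counts of a library. Levels per kilobase divide by the length of merged exons in the GENCODE annotation of GRCm38. Python 3.11.15, pandas 2.3.3, scipy 1.17.1 and matplotlib 3.10.9 made the summaries and plots. The steps were tested on simulated data with 200 changed genes.

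The members and gene lists were chosen with earlier results of these data known. All members are named. Some details and listed genes are not reported here. A listed gene is named where called in an LPS comparison at 2 h or in wild type at 24 h, at most 5 a list, the largest changes first. The 5 genes most like a member are those with the highest Spearman correlation of log2 CPM (prior count 2) among genes averaging at least 3. No replicates of a group agreed within sampling noise (lowest chi-square per degree of freedom 16.5, 31.4 and 22.3 in the 3 experiments). Alternatives were RLE size factors, DESeq2 1.42.0, no filter, the compared groups alone, a replicate block, mice numbered 11 and above, and each library left out. A further pair was chosen after seeing the data, the endothelial level as a covariate and the wild-type libraries low in Gpr37 left out. Mouse numbers at 24 h tie both regions to 1 animal, with correlations of same-numbered deviations from -0.04 to 0.24.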

Additional observations from a re-analysis of the deposited data

Results flagged for a closer look

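Each member was looked at in each group of 4 to 6 libraries, on the scale of log2(CPM + 1). In 25 of 108 such combinations 1 library stood apart from the others by Dixon's criterion, which chance meets in about 1 in 20. The combinations share libraries and are not independent. Many of them hold mostly zeros, where any counts make a library stand apart. All values are CPM.

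In untreated mice the myenteric small-intestinal replicate 6 stood apart for Sele (29.2), Selp (3.42) and Madcam1 (2.00). Madcam1 stood apart in myenteric colon replicate 2 (0.302). In the submucosal plexus the libraries were colon replicate 5 for Icam1 (129), colon replicate 4 for Sele (1.30) and small-intestinal replicate 2 for Sele (2.80).

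At 2 h after PBS, colon replicate 1 stood apart for Sele (0.233), replicate 4 for Selp (6.20) and replicate 2 for Pecam1 (14.9) and Cdh5 (0). Small-intestinal replicate 4 did so for Madcam1 (3.71). After LPS, colon replicate 1 was low for Sele (0.446) and colon replicate 2 high for Madcam1 (38.1). Small-intestinal replicate 1 was low for Vcam1 (398) and replicate 2 for Pecam1 (0).

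At 24 h after LPS, mouse 8 stood apart in wild-type colon for Vcam1 (358) and Sele (0.844) and in wild-type small intestine for Madcam1 (0). Knockout mouse 2 was low in the colon for Pecam1 (89.5), and knockout mouse 21 had the outlying Sele value in the small intestine (0.901). After PBS the outlying values were Sele in wild-type colon mouse 14 (3.03), Madcam1 in wild-type colon mouse 24 (4.05), and Sele in knockout colon mouse 20 (0.478) and knockout small intestine mouse 15 (1.52).

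The difference of Cdh5 between layers in untreated mice differed between regions by 3.01 on the log2 scale (adjusted p = 0.0419 in edgeR's quasi-likelihood test), with the colon value above the small-intestinal one. It was not called with the replicate block (2.92, adjusted p = 0.0804).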

How the results depend on the processing

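Icam1 at 2 h and Icam1 and Vcam1 in wild type at 24 h kept their direction and call under each alternative run and without any single library. Icam1 was lost in knockout small intestine with the groups alone (adjusted p = 0.207) and among mice numbered 11 and above (0.0704), and in knockout colon with the groups alone (0.0984). Vcam1 in knockout colon was called without the libraries low in Gpr37 (adjusted p = 0.0406), with the endothelial covariate (0.0265) and by DESeq2 (0.00701). The endothelial covariate and the removal of libraries low in Gpr37 were chosen after seeing the data.

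The number of members called changed as follows, and the cause was not tested. In wild-type colon it was 2, against 3 by DESeq2 or with the endothelial covariate (Selp gained), and in wild-type small intestine 2, against 3 among mice numbered 11 and above (Madcam1 gained). For submucosal colon against small intestine it was 1, against 0 with the groups alone, 2 by DESeq2 and 0 to 1 with single libraries left out. Between layers of the colon it was 1, against 2 (Icam1 gained) with RLE size factors, the replicate block, the groups alone or DESeq2, and 1 to 2 with libraries left out. Between layers of the small intestine it was 5, against 2 with the groups alone and 3 to 5 with libraries left out. In that fit of the groups alone Vcam1 and Pecam1 were not called, and Madcam1 did not pass the filter and had no value. For the dependence of the layer difference on region the number called was 1, against 0 with the replicate block and 0 to 1 with libraries left out. At 2 h in the colon it was 1, against 3 by DESeq2 and 1 to 2 with libraries left out. In knockout small intestine it was 2, against 1 among mice numbered 11 and above or with the groups alone, and 1 to 2 with libraries left out. In knockout colon it was 1, against 0 with the groups alone, 2 without the libraries low in Gpr37 or with the endothelial covariate, 4 by DESeq2 and 1 to 2 with libraries left out.

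Signs turned for these uncalled log2 changes. Pecam1 at 2 h in the colon gave 0.00183 with RLE size factors, 0.25 with the replicate block, 0.0161 with the groups alone and 0.0046 by DESeq2. With the endothelial covariate Cdh5 gave 0.26 in wild-type and 0.325 in knockout small intestine, Sele 0.066 in wild-type colon and Pecam1 1.36 in knockout small intestine. Among mice numbered 11 and above Pecam1 gave 0.16 in knockout small intestine and Cdh5 -0.30 in knockout colon. With single libraries left out the ranges spanned 0 for Pecam1 at 2 h (-0.93 to 0.0834 in the small intestine, -0.45 to 0.39 in the colon) and Cdh5 at 2 h in the small intestine (-1.16 to 0.23). At 24 h they did so for Sele (-1.21 to 2.93 in wild-type small intestine, -5.83 to 3.85 in wild-type colon, -4.81 to 4.13 in knockout small intestine), Cdh5 (-0.70 to 0.13 in wild-type small intestine, -0.0275 to 0.98 in knockout colon) and Pecam1 (-0.98 to 0.40 in knockout small intestine).

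Counts over all genes moved by more than 1.5 times in most comparisons. DESeq2 gave 280 against 144 at 2 h in the small intestine and 301 against 102 in the colon, and 1894 against 1069, 2282 against 1186, 537 against 107 and 480 against 107 at 24 h (wild-type small intestine and colon, then knockout). With the groups alone the counts in 2 h colon, wild-type small intestine, wild-type colon, knockout small intestine and knockout colon were 63, 1704, 412, 47 and 7. Without the libraries low in Gpr37 wild-type colon had 373. Single libraries left out gave 641 to 1057, 551 to 1324, 46 to 352 and 28 to 191 at 24 h, 65 to 108 in 2 h colon, and, in untreated mice, 206 to 475 and 357 to 893 between regions in the myenteric and submucosal plexus and 97 to 246 for the layer and region term. In untreated mice DESeq2 gave 1035 against 449 between regions in the myenteric plexus, 1164 against 730 in the submucosal plexus and 575 against 168 for the layer and region term, the replicate block 246 in the myenteric plexus, and the groups alone 1902 against 3069 between colon layers.

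Whether the same number in 2 groups marks 1 animal in untreated or 2 h samples could not be decided. Correlations of their deviations ran from -0.10 to 0.31. Those of shared mice at 24 h ran from -0.04 to 0.24, so these values cannot tell paired samples from unpaired ones. For the LPS effect between regions at 24 h, where mice are shared, the mouse as replicate block left 0 members called in either genotype. Sele, Selp and Madcam1 are at or under the floor of 3 counts in many libraries, which limits their fold changes.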
